A study of Mus musculus with 7 samples.

Results

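The corticotropin-releasing hormone (CRH) system was followed through 6 genes: those of the peptides CRH (Crh), urocortin (Ucn) and urocortin 3 (Ucn3), of the receptors CRHR1 (Crhr1) and CRHR2 (Crhr2), and of the CRH-binding protein (Crhbp). They were taken by exact match of their symbols in the platform annotation, and each was measured by a single probe set, among 22180 named genes in all. The samples were medial prefrontal cortex (mPFC) of mice in which a GFP-tagged ribosome ("Ribosome TRAP") was switched on by Cre expressed from the activity-regulated gene Arc (ArcCre). The 4 cocaine-activated samples, numbered 4, 5, 6 and 7, came from mice that received cocaine at 15 mg/kg for 2 days in the presence of tamoxifen. The 3 shock-activated samples, numbered 4, 5 and 6, came from mice that received 20 shocks of 0.5 mA, each lasting 2 s, for 2 days, also with tamoxifen. Cells active during the exposure therefore carried the tag, and an anti-GFP antibody recovered their ribosomes and the bound RNA, which was hybridised to a one-colour array per sample. All 7 samples share both alleles, the tamoxifen and the pull-down, so the comparison sets the ensemble labelled by cocaine against the one labelled by shock, and untagged cells were not analysed here. The labels used here give no age, sex or strain, and do not say whether a sample is an animal or a pool. The p-values thus speak of the spread among the arrays at hand, and that spread could be technical.

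CRH released from the hypothalamus starts the hormonal response to stress, and within the cortex the peptide is made locally, mainly by GABA interneurons, many of which also make vasoactive intestinal peptide (Vip). CRH and urocortin both bind CRHR1, the main CRH receptor of cortical pyramidal cells, whereas urocortin 3 is selective for CRHR2, a receptor best known from the septum, the hypothalamus and peripheral tissues. Both receptors belong to the secretin family and raise cAMP through the stimulatory G protein, and CRH-binding protein, in cortex made largely by somatostatin (Sst) interneurons, takes up free CRH and urocortin.

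Upstream sequence from RefSeq (GRCm38.p6, 250 bases before to 50 after the annotated start) was found for 5 of the 6 genes, Crh being the exception. It was searched for the cAMP response element TGACGTCA, which binds CREB, the factor that cAMP signalling activates. The Ucn window held it, beginning at position -44, with positions counted from the annotated start and negative before it. Of 32851 such windows, 588 (1.79%) held the element on either strand, and none of the Crhr1, Crhr2, Crhbp and Ucn3 windows did. Its core, TGACG, which lies in the full element on both strands, was found in 20.8% of the windows. The core also lay in the Crhbp window on the reverse strand, at -64, and was not in the other 3. The letters TATAAA, searched on both strands and present in 13.6% of windows, lay at -39 in the Crhr2 window and at 30 in the Crhbp window, past the annotated start. The glucocorticoid receptor core TGTTCT, in 19.0% of windows, was found in the Ucn window alone among the 5, at -54. A match describes letters, not a bound site. The Ucn, Crhbp and Crhr2 windows are shown because they hold these matches, with the full element, its core and TATAAA in capitals.
Ucn promoter, chr5:31138846-31139145, minus strand: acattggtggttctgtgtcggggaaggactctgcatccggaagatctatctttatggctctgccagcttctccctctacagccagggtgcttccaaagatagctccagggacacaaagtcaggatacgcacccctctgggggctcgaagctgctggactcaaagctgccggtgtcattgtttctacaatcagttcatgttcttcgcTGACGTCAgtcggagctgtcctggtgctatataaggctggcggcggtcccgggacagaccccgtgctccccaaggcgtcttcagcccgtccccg
Crhbp promoter, chr13:95444782-95445081, minus strand: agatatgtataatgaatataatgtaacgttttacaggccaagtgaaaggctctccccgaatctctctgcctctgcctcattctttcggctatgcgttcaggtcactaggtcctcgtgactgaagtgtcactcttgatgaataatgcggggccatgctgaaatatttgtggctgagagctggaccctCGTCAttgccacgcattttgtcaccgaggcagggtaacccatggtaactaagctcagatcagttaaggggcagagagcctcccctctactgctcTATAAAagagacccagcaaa
Crhr2 promoter, chr6:55132967-55133266, minus strand: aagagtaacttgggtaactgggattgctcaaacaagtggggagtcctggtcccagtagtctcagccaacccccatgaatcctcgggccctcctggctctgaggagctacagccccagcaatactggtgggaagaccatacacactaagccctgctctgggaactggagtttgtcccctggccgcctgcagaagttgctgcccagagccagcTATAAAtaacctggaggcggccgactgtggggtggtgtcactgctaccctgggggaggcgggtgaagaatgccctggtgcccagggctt
The Crhr1 window, by comparison, was 75.0% G and C with 31 CpG pairs, against a median of 52.7% G and C over all windows, and the Ucn3 window was 44.7% G and C with 1 CpG pair.

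None of the 6 genes separated the cocaine-activated from the shock-activated samples. By limma, 0 of 6 passed an adjusted p of 0.05, 0 of 6 passed an unadjusted p of 0.05, and 0 of 6 had groups that did not overlap. Over all 22180 genes the same shares were 0%, 3.1% and 2.37%, so 0 of 6 does not set these genes apart. Their means were higher in the cocaine group for Crhr2, Ucn and Ucn3 and lower for Crh, Crhr1 and Crhbp. The median difference, cocaine minus shock on the log2 scale, was 0.0085 over the 6 genes and 0.0016 over all genes, and the median size of the difference was 0.039 against 0.051. In a bulk precipitate, fewer cells of a type and less RNA per cell cannot be told apart. How much of the RNA came from untagged cells cannot be told either, as no input or untagged sample was analysed here.

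**Figure D1:**
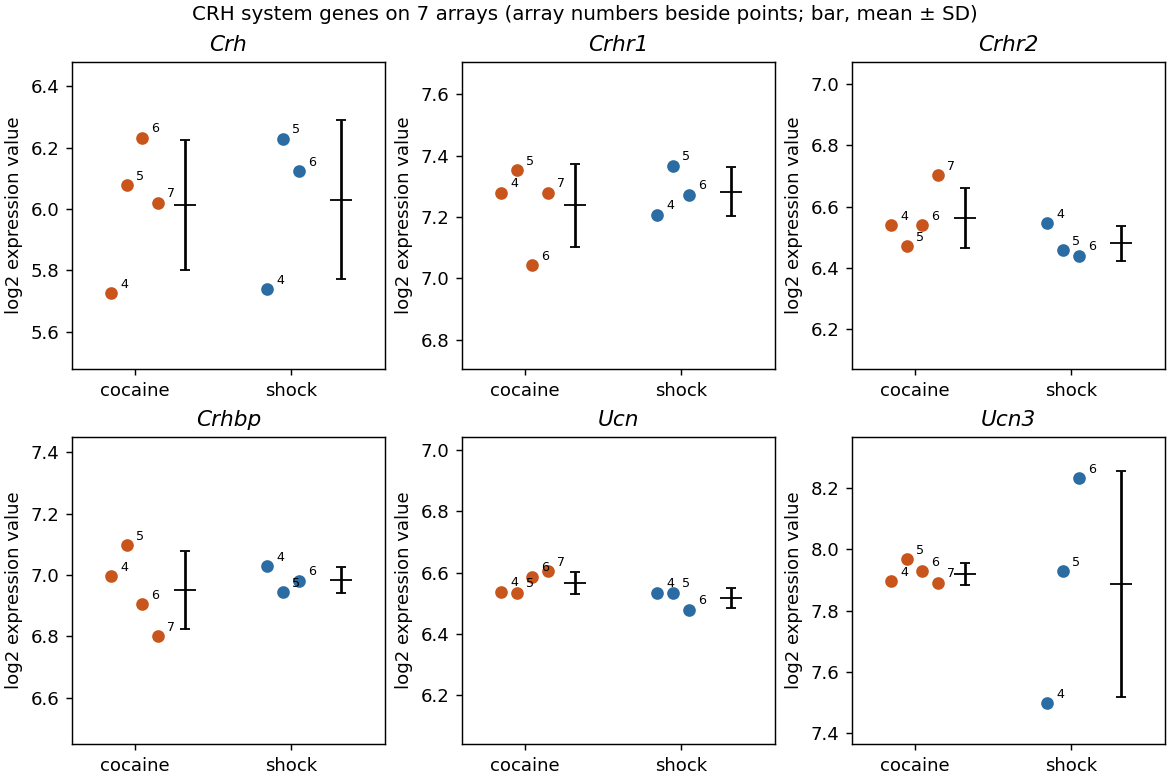
Deposited log2 expression value of each CRH system gene on each array, with the cocaine group left and the shock group right, array numbers beside the points, and mean ± SD as bars. Each panel spans 1 log2 unit. The groups overlap for all 6 genes, and for Crh both arrays numbered 4 (5.72 cocaine, 5.74 shock) lie below the rest.

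Crh, the gene of the founding peptide of the system (probe set 17404296, Entrez 12918), had log2 values of 5.72, 6.08, 6.23 and 6.02 on cocaine arrays 4, 5, 6 and 7, against 5.74, 6.23 and 6.12 on shock arrays 4, 5 and 6. The groups averaged 6.01 ± 0.21 (SD, n = 4) in cocaine and 6.03 ± 0.26 (SD, n = 3) in shock and overlapped almost fully. The difference was -0.02 (SE 0.15; limma adjusted p = 0.992; exact two-sided permutation p = 0.857). The lowest value of each group was that of its array numbered 4, and the labels do not say what a shared number marks. Between arrays of the same number the cocaine value minus the shock value was -0.014 for number 4, -0.15 for number 5 and 0.11 for number 6. The sign of the Crh difference was not stable: it was 0.079 without cocaine array 4, 0.082 without shock array 5 and 0.029 without shock array 6.

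Ucn, the gene of urocortin, a high-affinity ligand of both receptors (probe set 17446832, Entrez 22226), had 6.54, 6.54, 6.59 and 6.60 in cocaine, against 6.54, 6.54 and 6.48 in shock. It was the steadiest of the 6 genes, with a range of 0.12 over the 7 arrays, and cocaine array 5 and shock arrays 4 and 5 carried the identical deposited value. The groups averaged 6.57 ± 0.035 (SD, n = 4) in cocaine and 6.52 ± 0.032 (SD, n = 3) in shock. The difference of 0.049 (SE 0.035) was larger than either SD but did not pass (limma unadjusted p = 0.205, adjusted p = 0.938; exact permutation p = 0.2). Cocaine arrays 6 and 7 were the highest and shock array 6 the lowest.

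Ucn3, the gene of the CRHR2-selective peptide (probe set 17290259, Entrez 83428), had 7.90, 7.97, 7.93 and 7.89 in cocaine, against 7.50, 7.93 and 8.23 in shock. The cocaine arrays lay close together and inside the range of the shock arrays, which held both the lowest and the highest value. The SD was 0.036 in the cocaine group and 0.37 in the shock group around nearly equal means of 7.92 and 7.89 (n = 4 and 3). The difference was 0.034 (SE 0.16; limma adjusted p = 0.982; exact permutation p = 0.829). It became -0.16 without shock array 4 and 0.21 without shock array 6.

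Ucn3 is known from hypothalamus and amygdala, and shock array 6, its highest array, also had the highest score of a list of septal and hypothalamic markers (0.12, as the mean over 11 genes of the value minus the gene's 7-array mean). The summed log2 level of that list ran from 65.6 to 66.1 in the cocaine group and from 65.4 to 67.3 in the shock group, and 8 of 11 genes lay above background. That array had the highest score for 9 of the 17 lists, among them the mural and smooth muscle (0.50), endothelial (0.19), Vip and Cck (0.092) and GABA (0.078) lists. The part of any of these in the Ucn3 values was not tested.

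Among the receptors, Crhr1 (probe set 17257175, Entrez 12921) had 7.28, 7.35, 7.04 and 7.28 in cocaine, against 7.21, 7.37 and 7.27 in shock. Cocaine array 6 was the low one, and cocaine arrays 4 and 7 had the identical value. The means were 7.24 ± 0.14 (SD, n = 4) in cocaine and 7.28 ± 0.081 (SD, n = 3) in shock, a difference of -0.044 (SE 0.081; limma adjusted p = 0.956; exact permutation p = 0.771). Cocaine array 6 stood apart from all arrays over the whole table, and without it the Crhr1 difference was 0.021.

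Crhr2 (probe set 17467040, Entrez 12922) had 6.54, 6.47, 6.54 and 6.70 in cocaine, against 6.55, 6.46 and 6.44 in shock. It had the largest difference of the 6 genes, with means of 6.56 ± 0.099 (SD, n = 4) in cocaine and 6.48 ± 0.057 (SD, n = 3) in shock. That difference of 0.082 (SE 0.062) was below the SD of the cocaine group and did not pass (limma unadjusted p = 0.229, adjusted p = 0.938; exact permutation p = 0.2). It rested largely on cocaine array 7, the highest, and was 0.035 without it. Crhr2 is also known from choroid plexus and vascular smooth muscle. Cocaine array 7 had the lowest scores of both marker lists (-0.38 for choroid plexus and -0.32 for mural and smooth muscle). Cocaine array 6, with Crhr2 at 6.54, had scores of -0.37 and -0.023 in that order. Only 4 of 9 choroid plexus genes lay above background, against 11 of 12 mural and smooth muscle genes. The part of these lists in the Crhr2 values was not tested.

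Crhbp (probe set 17295112, Entrez 12919) had 6.996, 7.10, 6.90 and 6.80 in cocaine, against 7.03, 6.94 and 6.98 in shock. The cocaine values spanned the shock values on both sides, with means of 6.95 ± 0.13 (SD, n = 4) in cocaine and 6.98 ± 0.042 (SD, n = 3) in shock. The difference was -0.035 (SE 0.072; limma adjusted p = 0.959; exact permutation p = 0.686). Cocaine array 7, the lowest for Crhbp, was also the lowest for Sst (11.46), and without it the Crhbp difference was 0.015. Over all 7 arrays, however, Crhbp followed the score of the Sst and Pvalb interneuron list only weakly (Pearson r = 0.28).

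How large a difference these arrays leave room for is given by the 95% intervals of the limma fit. As ratios of cocaine to shock they ran from 0.766 to 1.28 for Crh, from 0.848 to 1.11 for Crhr1, from 0.955 to 1.17 for Crhr2, from 0.866 to 1.10 for Crhbp, from 0.976 to 1.10 for Ucn and from 0.791 to 1.33 for Ucn3. On the array scale all 6 intervals excluded a 1.5-fold change in either direction, taking the spread of a gene as equal in both groups. For Ucn3 the SDs were unequal, at 0.036 in cocaine and 0.37 in shock. Its interval may therefore be too narrow, and an interval with unequal spreads was not computed. The room left was wider for the noisier genes: the interval reached 0.37 log2 units to either side of the difference for Crh and for Ucn3, against 0.084 for Ucn. For a single gene the exact permutation test of 4 against 3 arrays cannot give a p below 0.0286.

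**Figure D2:**
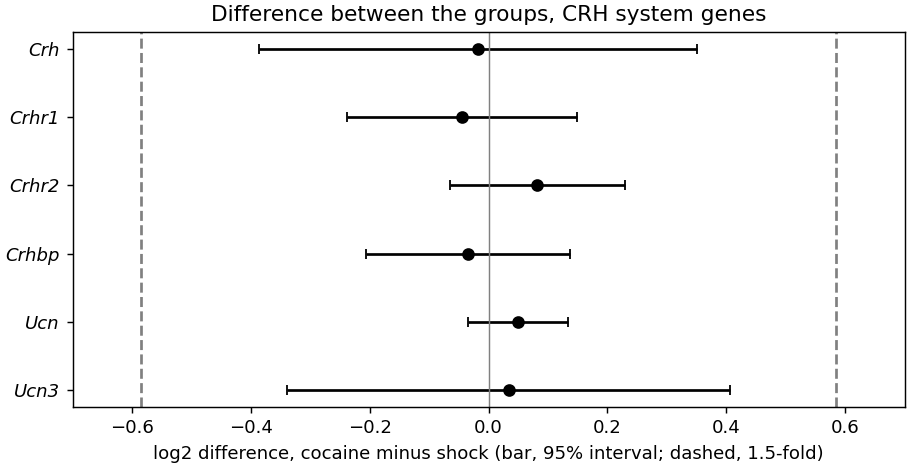
Log2 difference, cocaine minus shock, for each CRH system gene (points) with its 95% interval from limma (bars) and dashed lines at 1.5-fold. All 6 intervals include 0 and lie within the dashed lines, the widest being those of Crh and Ucn3. They take the spread as equal in both groups, which the Ucn3 values did not show.

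The 6 genes differed in how much they varied between arrays of a group. Pooled within-group SDs were 0.23 for both Crh and Ucn3, 0.12 for Crhr1, 0.10 for Crhbp, 0.085 for Crhr2 and 0.034 for Ucn, against a median of 0.077 over the genes above background. Crh and Ucn3 were more variable than 97.4% and 97.6% of those genes, and Ucn more than 11.5%. For Crh the spread lay within both groups (SD 0.21 in cocaine and 0.26 in shock), while for Ucn3 it lay in the shock group.

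**Figure D3:**
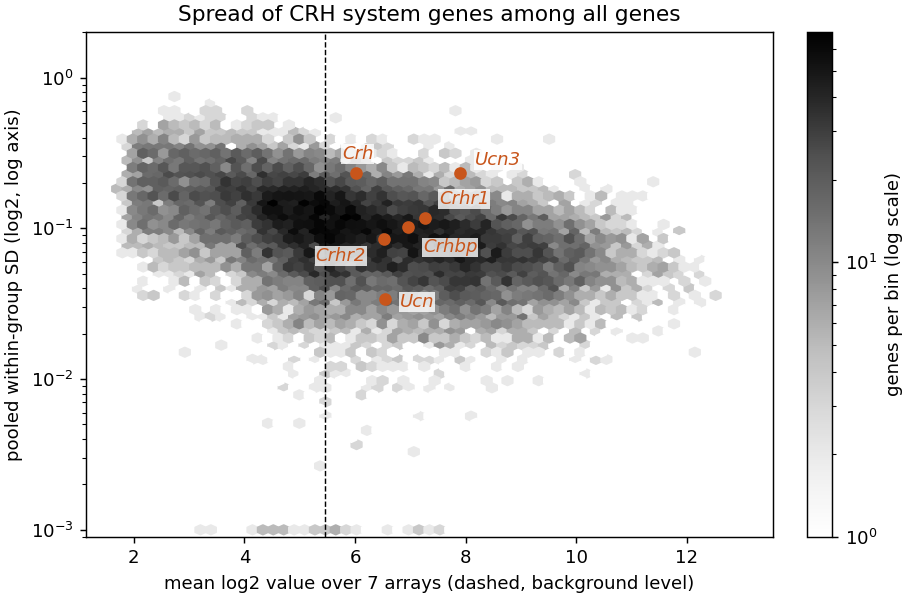
Pooled within-group SD (log axis) against the mean log2 value over 7 arrays for all genes (grey bins, genes per bin) and the 6 CRH system genes (orange). Genes with an SD under 0.001 are drawn at 0.001, and the dashed line is the background level of 5.46. Crh and Ucn3 had a larger SD than 97.4% and 97.6% of the genes above background, and Ucn than 11.5%.

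Whether the probe sets measured their genes at all can be judged only roughly. As a stand-in for background, 1390 olfactory and vomeronasal receptor genes were taken, few of which cortical cells are known to use, and the 95th percentile of their means was 5.46. All 6 genes lay above it, as did 61.9% of all genes. Crh was nearest to it, 0.56 above, with 29 of the 1390 receptor genes at higher levels, and the corresponding numbers were 14 for Crhr2, 12 for Ucn, 5 for Crhbp, 4 for Crhr1 and 1 for Ucn3. Signals of different probe sets depend on their probes, so the higher values of Ucn3 (7.91 over the 7 arrays) than of Crh (6.02) do not rank the transcripts. Ucn2, the gene of the remaining urocortin and not one of the 6, was under the background level with 5.20 ± 0.12 (SD, n = 4) in cocaine and 5.23 ± 0.088 (SD, n = 3) in shock.

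Markers of the labelled tissue were read on the same arrays. Slc17a7, the vesicular glutamate transporter gene of cortical pyramidal cells, averaged 11.73 in cocaine and 11.65 in shock. Of the marker lists, 8 of 9 excitatory, 6 of 6 GABA, 11 of 12 Vip and Cck interneuron and 12 of 16 Sst and Pvalb interneuron genes were above background, as were 12 of 12 astrocyte and 11 of 12 endothelial genes. Endothelial genes had a lower mean in cocaine in 12 of 12 cases, with 5 at an unadjusted limma p of 0.05. Over all genes 3.1% passed that p, and 2.37% had groups that did not overlap. The summed endothelial levels were 76.0 to 79.8 in cocaine and 80.8 to 81.9 in shock. Astrocyte genes had a lower mean in 12 of 12 cases as well, with 0 at that p and overlapping summed levels of 105.5 to 108.9 in cocaine and 107.4 to 109.3 in shock. Striatal neuron genes had a higher mean in cocaine in 7 of 9 cases, with summed levels of 79.4 to 81.3 in cocaine and 78.8 to 79.7 in shock. The 3 striatal genes at an unadjusted p of 0.05 were the dopamine receptor gene Drd1 (difference 0.33), the retinoic acid receptor gene Rarb (0.23) and the phosphodiesterase gene Pde10a (0.17), whose groups did not overlap (limma adjusted p = 0.938 for each). Oligodendrocyte lineage genes had a higher mean in cocaine in 7 of 11 cases, with 1 at an unadjusted limma p of 0.05. That gene was Olig2, which was lower in cocaine (difference -0.16, limma adjusted p = 0.938) and whose groups did not overlap. Microglia genes had a higher mean in cocaine in 4 of 10 cases, with 0 at that unadjusted p. Their summed levels did not overlap, at 58.93 to 59.19 in cocaine and 59.33 to 59.68 in shock. Ttr, the leading transcript of choroid plexus, averaged 8.85 ± 1.72 (SD, n = 4) in cocaine and 9.98 ± 1.41 (SD, n = 3) in shock. Cocaine array 6 had 1012 genes more than 0.5 away from the average of the remaining arrays, whereas the number was 168 to 268 for the others. Ties were common, with some pair of arrays sharing a value in 55.9% of probe sets.

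The genes around these 6 in the pathway differed little between the groups as well. Of 34 measured genes of CRH receptor signalling (G proteins, adenylyl cyclases, protein kinase A, CREB and its coactivators, arrestins and receptor kinases), 18 had a higher and 16 a lower mean in cocaine. Their median difference was 0.0047, and 1 gene passed an unadjusted p of 0.05 against 3.1% of all genes. That gene was Gnai2, an inhibitory G protein subunit, at 9.94, 9.94, 9.85 and 9.87 in cocaine, against 10.07, 9.97 and 10.05 in shock. Its groups did not overlap, as was the case for 2.37% of all genes. The Gnai2 difference of -0.13 (SE 0.043) did not pass the correction (limma adjusted p = 0.938). The beta-arrestin gene Arrb1 differed by -0.075 and the CREB coactivator gene Crtc3 by -0.072, both short of an unadjusted p of 0.05.

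Of 12 other genes of CRH and the pituitary-adrenal axis, 6 had a higher and 6 a lower mean in cocaine and 0 passed an unadjusted limma p of 0.05. Pomc, the precursor gene of the pituitary hormone that CRH releases, differed by -0.11 and lay under the background level. Fkbp5, a glucocorticoid-induced cochaperone gene, differed by 0.079, and Oxt, the oxytocin gene, by 0.13. Of 11 neuropeptide processing and secretion genes 5 had a higher and 6 a lower mean in cocaine, with 0 at an unadjusted limma p of 0.05. In that list the granin gene Scg3 differed by -0.11, the vesicle priming gene Cadps2 by -0.060 and the convertase inhibitor gene Pcsk1n by 0.049. The Cadps2 value was -0.0036 without shock array 6.

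The other secretin-family receptors, relatives of CRHR1 and CRHR2, had a lower mean in cocaine in 10 of 13 cases, with a median difference of -0.099 against 0.0016 over all genes. Their summed levels were close but did not overlap, at 81.63 to 82.38 in cocaine and 82.40 to 83.13 in shock. The parathyroid hormone receptor gene Pth1r had 6.40, 6.38, 6.44 and 6.50 in cocaine, against 6.66, 6.50 and 6.71 in shock, with a tie between cocaine array 7 and shock array 5. Its difference was -0.19 (SE 0.060; limma unadjusted p = 0.0156, adjusted p = 0.938). Pth1r was the 1 gene of the list at an unadjusted p of 0.05, against 3.1% of all genes. The GLP-1 receptor gene Glp1r differed by -0.14, with 7.68 on shock array 4 above all others, and by -0.053 without that array. The secretin receptor gene Sctr, under the background level, differed by -0.12. The list's median was nearer to 0, at -0.031, without shock array 6, and -0.035 without cocaine array 6. The mural and smooth muscle markers had a lower mean in cocaine in 12 of 12 cases on the same arrays, with summed levels of 81.4 to 85.6 in cocaine and 83.8 to 91.2 in shock, and the endothelial and astrocyte markers were also lower in 12 of 12 cases each. The part of these markers in the receptor values was not tested.

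**Figure D4:**
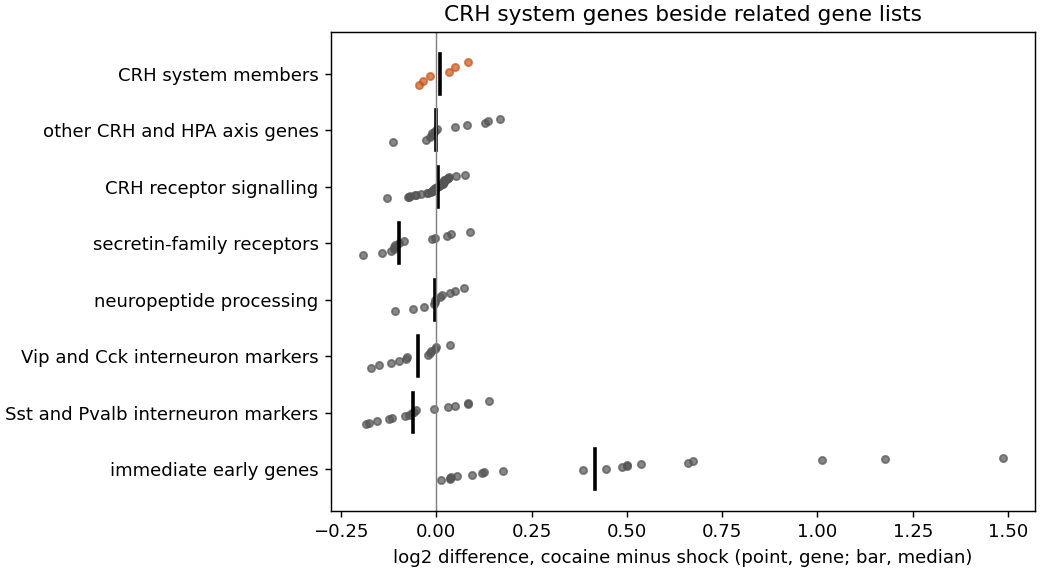
Log2 difference, cocaine minus shock, of each gene (points) in the CRH system (orange) and in related lists (grey), with list medians as bars. The CRH system genes lie between -0.044 and 0.082, while immediate early genes reach 1.49 (Npas4).

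The cells known to make CRH and CRH-binding protein were represented by interneuron markers. Vip and Cck interneuron genes had a lower mean in cocaine in 11 of 12 cases (median -0.049, or -0.026 without cocaine array 4 and -0.10 without shock array 4) and Sst and Pvalb interneuron genes in 11 of 16 (median -0.061, or -0.033 without cocaine array 4), with 0 of either list at an unadjusted limma p of 0.05. Vip had 6.89, 7.17, 7.45 and 7.06 in cocaine, against 7.25, 7.24 and 7.45 in shock, a difference of -0.17 (SE 0.13). Sst averaged 11.66 ± 0.14 (SD, n = 4) in cocaine and 11.84 ± 0.14 (SD, n = 3) in shock. Within the cocaine group Crh and Vip had the same order of arrays, lowest on array 4, then 7, 5 and 6, whereas shock array 4, lowest for Crh, was not low for Vip.

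Immediate early genes had the largest median difference of the 17 lists, 0.42, with a higher mean in cocaine for 20 of 20, whereas the median of the 6 CRH system genes was 0.0085. Of the 20, however, 2 passed an unadjusted limma p of 0.05, against 3.1% of all genes. Their summed levels overlapped, at 161.9 to 176.1 in cocaine and 155.0 to 174.3 in shock. Omitting shock array 4 gave an immediate early median of 0.15, and omitting shock array 5 gave 0.76. Npas4, an activity-dependent transcription factor gene, had 9.72, 9.30, 8.98 and 9.56 in cocaine, against 7.93, 9.11 and 6.68 in shock. Arc had 9.62, 10.10, 8.77 and 9.53 in cocaine, against 8.42, 9.88 and 8.20 in shock. Neither passed the correction (limma adjusted p = 0.938 for each).

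Co-variation was examined in 45 relations over the 7 arrays, 15 between pairs of the 6 genes and 30 between a gene and the score of the Vip and Cck, Sst and Pvalb, GABA, excitatory or immediate early list. By exact permutation 4 had an unadjusted Pearson p under 0.05, and 0 passed after Benjamini-Hochberg adjustment (smallest 0.429 for Pearson and 0.255 for Spearman). The pair with the largest Pearson r was Crhr2 and Ucn (r = 0.81, exact permutation p = 0.0345, adjusted 0.429; rho = 0.77, exact permutation p = 0.0512, adjusted 0.288), and r was 0.40 without the 2 arrays farthest from the median of Crhr2. The other 3 were negative for Crhr2 with the Vip and Cck score (r = -0.77, exact permutation p = 0.031) and for Ucn with the Sst and Pvalb score (r = -0.79, exact permutation p = 0.0381), and positive for Crhr2 with the excitatory score (r = 0.74, exact permutation p = 0.0333). In that order rho was -0.81, -0.82 and 0.79 (exact permutation p = 0.0349, 0.0357 and 0.0397), and adjusted p was 0.429 for Pearson and 0.255 for Spearman in each. Without the 2 arrays with the most extreme scores r was -0.94, -0.83 and 0.58. Crh and the excitatory score had r = -0.74 (exact permutation p = 0.0653, adjusted 0.588; rho = -0.82, exact permutation p = 0.0341, adjusted 0.255), and r was -0.81 without 2 arrays. Crh and the Vip and Cck score had r = 0.67 (exact permutation p = 0.106, adjusted 0.598; rho = 0.64, exact permutation p = 0.139, adjusted 0.402), and r was 0.53 without 2 arrays. Crhbp and the Sst and Pvalb score had r = 0.28 (exact permutation p = 0.507, adjusted 0.765), and r was 0.72 without 2 arrays. For this pair rho was 0.32 (exact permutation p = 0.498, adjusted 0.837). Crhr1 and the immediate early score had r = 0.58 (exact permutation p = 0.163, adjusted 0.613) and rho = 0.85 (exact permutation p = 0.0238, adjusted 0.255). For Crhr1 r was 0.975 without the 2 arrays with the most extreme scores, so it changed with the arrays included. Within a group there are too few arrays for a value.

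The genes with the most similar profile over the 7 arrays were taken from 12667 genes above background. For Crh they were the fatty acid synthase gene Fasn (Pearson r = 0.980, rho = 0.883), Zbtb43 (0.974, 0.929) and Zer1 (0.972, 0.865). All 3 were lowest on cocaine array 4 and shock array 4, as Crh was. For Crhr1 they were the histone methyltransferase gene Setd1b (r = 0.997), the DNA demethylase gene Tet1 (0.996) and Zmynd15 (0.989), each lowest on cocaine array 6.

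Ucn was nearest to the postsynaptic scaffold gene Shank3 (r = 0.995), Dock3 (0.992) and Camta2 (0.983), and Ucn3 to Tmem132a (0.996), the Wnt ligand gene Wnt5a (0.990) and the AMP deaminase gene Ampd2 (0.990). For Crhr2 the genes were Fam189b (0.977), Adam9 (0.969) and Ano8 (0.967), and for Crhbp Golim4 (0.981), Cnot4 (0.972) and Agpat5 (0.971). Values this high are usual with 7 arrays: the best match of a gene had a median r of 0.988 over the 12667 genes, with quartiles of 0.979 and 0.994. Crhr1, Ucn and Ucn3 were above the upper quartile, while the best matches of Crh, Crhr2 and Crhbp were below the median. Ties added to likeness in places, since 4 of the 12 genes listed for the 4 members with tied values were tied on the same arrays.

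**Figure D5:**
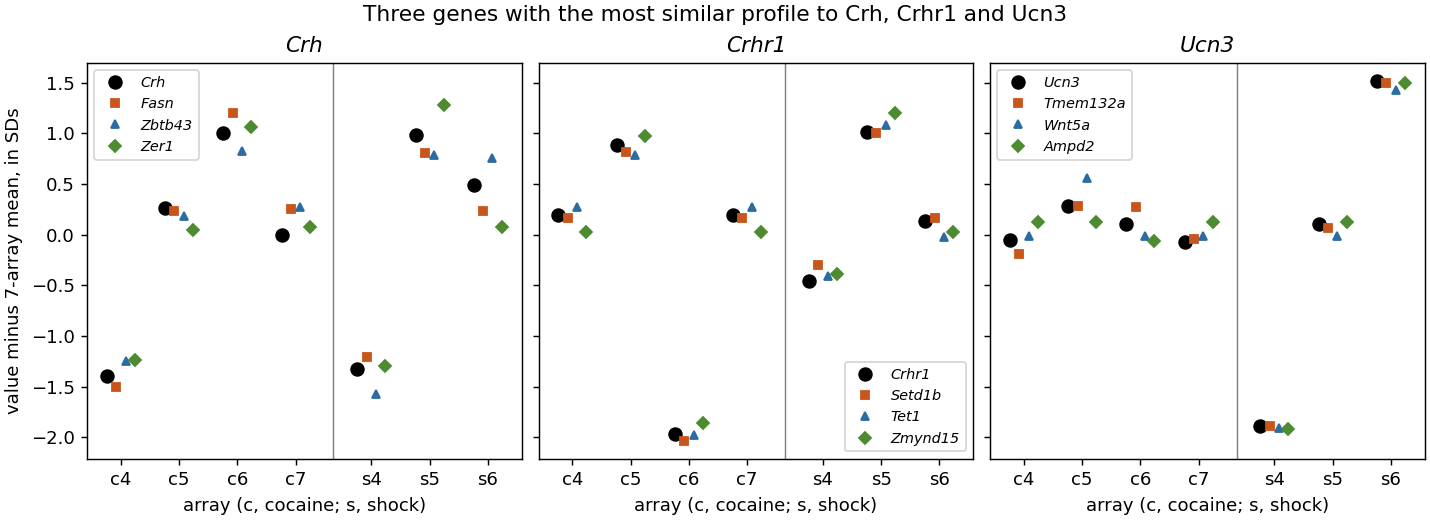
Value of Crh, Crhr1 and Ucn3 (black) and of the 3 genes most similar to each (coloured) on cocaine (c) and shock (s) arrays, as the difference from the gene's 7-array mean in units of its SD. Crh and its similar genes are lowest on c4 and s4, Crhr1 and its similar genes on c6, and Ucn3 and its similar genes on s4.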

How the data were processed

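Ribosome-bound RNA of 7 samples was measured on one-colour Affymetrix arrays, and the precision is limited by the number of arrays. The authors deposited 41345 probe set values, read here as log2 expression because they span 1.12 to 13.44. Transcriptome Analysis Console is named in the submitters' processing notes. How probes were summarized and normalized is not given in the sources. Array medians were 5.44 to 5.47, so a difference is relative to the rest of the array.

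Probe sets with 1 symbol in the platform annotation (23521) were kept, taking for each gene the one with the highest mean, which left 22180 genes. Each of the 6 genes had 1 probe set. Groups came from the labels. Differences are cocaine minus shock, fitted in R 4.3.3 with limma 3.58.1 (lmFit with eBayes; two-sided, no covariate, Benjamini-Hochberg over all genes), beside exact two-sided permutation over 35 splits. No gene was filtered out before the fit.

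The 6 genes, the lists and the rule for named genes were chosen with earlier results of these data known. The rule took the 6 genes, up to 3 listed genes per list by smallest unadjusted p, a few fixed markers, and for each of the 6 genes the 3 genes of highest Pearson r over the arrays. Predicted genes, small RNAs and chemosensory receptors were not eligible as similar genes. Genes of lists that bear on no result are given as counts. Alternatives were each array left out, quantile normalization, median centring, dim genes left out, the mean of probe sets, trend and robust moderation, array weights and a replicate block. The fits were tested on simulated data.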

Additional observations from a re-analysis of the deposited data

Results flagged for a closer look

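None of the 6 CRH system genes had a cocaine array standing far from the other 3 by Dixon's 95% limit for 4 samples (0.829). Of 78 genes looked at, including listed markers and genes of similar profile, 8 passed it, where chance passes about 5% of measures without ties. Among pathway genes and genes of similar profile, cocaine array 6 was lowest for Arrb1 (gap of 1 of the range, the other 3 arrays being tied) and for Ampd2 (1, also tied), and cocaine array 5 was highest for Wnt5a (1, tied). Among markers, cocaine array 6 was lowest for Lhx6 (0.8987), Cx3cr1 (0.9105) and Otx2 (0.9731, with a tie among the other arrays). Dlx2 was lowest on cocaine array 4 (0.9104) and Hcrt on cocaine array 5 (1, tied). The limit does not apply to 3 arrays, so the spread of Ucn3 among the shock arrays was not examined by it.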

How the results depend on the processing

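Over 14 alternatives, 0 of the 6 genes and 0 of all genes passed an adjusted limma p of 0.05 (smallest adjusted p of the 6 genes 0.871). Of 84 refits of the 6 genes, 76 kept the sign and 8 changed it. These counts overstate how far the sign was tested. Leaving out dim genes, the mean of probe sets and trend and robust moderation left each difference of the 6 genes unchanged. Those refits could not change a sign. The replicate block repeated the differences of a refit with 1 array left out. Crh was 0.0031 after median centring. With 1 array left out the differences ran from -0.16 to 0.082 for Crh, -0.083 to 0.021 for Crhr1, 0.035 to 0.11 for Crhr2, -0.084 to 0.015 for Crhbp, 0.031 to 0.060 for Ucn and -0.16 to 0.21 for Ucn3. The sign of Ucn and Crhr2 held in all 14, including the settings that could not change it. The count of genes at an unadjusted limma p of 0.05 among 90 pathway and immediate early genes was 4 and ran from 0 without shock array 4 to 13 without shock array 5, and the signalling median was -0.014 to 0.018 with 1 array omitted and 0.025 after median centring. The 19 other genes given with differences kept their sign in every alternative run, again including settings that left the difference unchanged. Pomc and Sctr, under the background level, have no refit with dim genes left out. Of the 19, however, 14 changed in size more than 1.5 times on omitting a single array, all but Gnai2, Pth1r, Drd1, Rarb and Pde10a.

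A replicate block by title number also drops cocaine array 7, which has no partner, and gave the same differences as leaving out that array alone (Crhbp 0.015, signalling median -0.014). For Crh the replicate block gave -0.019 with an SE of 0.066, against 0.15 without it (limma adjusted p = 0.962). The labels do not say that the numbers pair the arrays, and whether they do was not tested. Deviations of same-numbered arrays correlated at 0.13, 0.064 and 0.16. Among arrays 4, 5 and 6, those of different number all correlated negatively, from -0.097 to -0.019. Deviations within a group cancel out, so positive values come with negative ones. Shock array 5 correlated best with cocaine array 7 (0.090). That block changed no call of an adjusted p. The unknown normalization, the ties and the lack of detection calls limit what small differences mean.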
